A study of Rattus norvegicus with 6 samples.

Results

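Selenoproteins carry selenocysteine, an amino acid inserted at a UGA codon that would otherwise end translation. Recoding of that codon needs a stem-loop in the 3′ end of the mRNA, the SECIS element, together with SECIS binding protein 2, a dedicated elongation factor and a selenocysteine tRNA. Liver makes most of the selenoprotein P of plasma, which carries selenium to other tissues, and when selenium is scarce some selenoproteins, such as Gpx1, give way before others, such as Gpx4. Values were examined for 7 selenoprotein mRNAs of rat liver: Sepp1 (selenoprotein P), the glutathione peroxidases Gpx1 and Gpx4, the mitochondrial thioredoxin reductase Txnrd2, the methionine sulfoxide reductase Msrb1, the deiodinase Dio1 and the selenophosphate synthetase Sephs2. They were taken by symbol from 33022 loci, each symbol was found on 1 locus, and all 7 were among the 10201 loci compared, those with a symbol whose value was estimated without error and averaged 1 or more FPKM. FPKM counts sequenced fragments per length of transcript and per depth of library.

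The livers came from male obesity-prone Sprague Dawley (op-SD) rats that ate freely from a Control diet (CD) or a Western diet (WD) for 2 wk, and were then fasted overnight and refed before tissue was taken. The CD has the code TD 08485, and TD 88137 is that of the WD. For each diet, total RNA was sequenced beside the light part of a sucrose gradient, where mRNAs carry 3 or fewer ribosomes, and the heavy part, where they carry 4 or more. RNA from 3 rats went into each of the 6 libraries, so each diet and kind of RNA has 1 library, no value has a replicate and no test between diets could be made. Rats of the CD and the WD were different animals, each pooled before sequencing, so that differences among rats were not measured.

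Summed hepatocyte markers (6 of 6 found) were between 42592 and 129086 FPKM, against 55.7 to 121 FPKM for markers of Kupffer cells, 48.7 to 70.9 FPKM for those of sinusoidal endothelium and 33.5 to 63.9 FPKM for those of stellate cells. Markers of red blood cells (4 of 6 found) summed to 414 FPKM in the light fraction of the WD, whereas the other 5 libraries had 16.8 to 52.6 FPKM. Hbb (242 FPKM) and Hba1 (163 FPKM) made up most of that sum. From the CD to the WD light fraction 3 of the 4 markers were higher and 1 was lower, Alas2, at 19.7 and 7.18 FPKM. The WD light library was also the deepest, with 642333 fragments where these could be inferred (below), against 281153 to 431893 in the other libraries. In liver tissue, fewer cells of a type and less RNA per cell cannot be told apart.

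The first transcribed bases of these mRNAs are shown. A run of pyrimidines at that place marks many of the mRNAs whose movement into polysomes follows nutrient signaling. The sequences run 5′ to 3′ across the RefSeq start in the rat assembly GRCr8, with 15 bases before the start in lower case and the first 15 transcribed bases in capitals. The windows lie at chr2:54225721-54225750 and chr2:54225897-54225926 for 2 starts of Sepp1, chr8:117905447-117905476 for Gpx1, chr10:14269399-14269428 for Msrb1 (all on the plus strand), chr7:10303615-10303644 for the most upstream of 3 starts of Gpx4, chr11:96072461-96072490 for Txnrd2, chr5:127319770-127319799 for Dio1 and chr1:191325941-191325970 for Sephs2 (these 4 on the minus strand).
Sepp1, start 1: gttagtacttgtcaaAACTCGTCCCTCTAC
Sepp1, start 2: tcagcctgtggctttGTGGATCTGCCCTAA
Gpx1: tgaggccggaaagttGAAGCCACGTGATCT
Gpx4, start 1: agggcgggcaagccaGACTCGGCCTCGCGC
Txnrd2: ggcagcgcgaagggcAGCCCTAACCGCCTA
Msrb1: ggaaagtgattggttATTGGGAAGGGGTCG
Dio1: gtaggcctcagagccAGTTCTGCCCCGTGC
Sephs2: ctcgcggggaccggtGGTGCAAGCAGACGG
Of the 10 starts that RefSeq gives these 7 genes, 0 had C as the first transcribed base followed by 4 bases that were each C or T, read on the transcribed strand only. That pattern was held by 881 of 33469 starts over all genes (2.63%). The count describes these annotated starts and not the starts used in these livers. It also leaves out looser motifs that the study describes, such as a run that begins with T or lies within 4 bases of the start.

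The 7 mRNAs spanned a wide range of levels in total RNA, from 3674 FPKM for Sepp1 to 6.46 FPKM for Txnrd2 in the CD. In CD total RNA the order was Sepp1, Gpx1, Gpx4, Msrb1, Dio1, Sephs2 and Txnrd2, with the highest 569 times the lowest, and the order was the same in WD total RNA and in both light fractions. In the heavy fractions 1 pair of neighbours changed places in each diet, Dio1 and Msrb1 in the CD and Gpx1 and Sepp1 in the WD. FPKM is scaled for transcript length, so these levels can be set side by side. The lower and upper bounds that the authors deposited with each value overlapped for all 6 pairs of neighbours in every library except the CD light fraction, where they overlapped for 5 of 6.

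**Figure D1:**
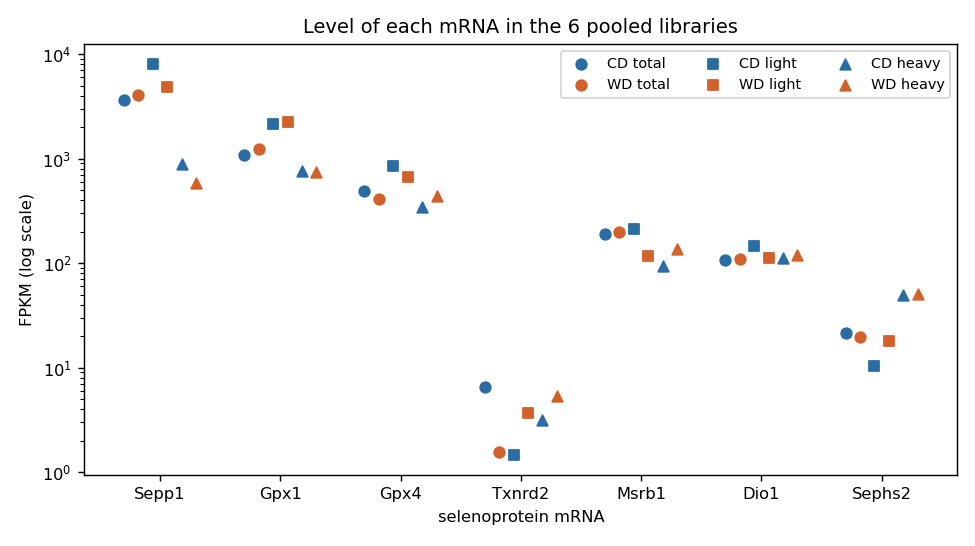
FPKM (log scale) of the 7 selenoprotein mRNAs in each of the 6 libraries, with 1 point for each mRNA and library. Sepp1 is 8116 FPKM in the CD light fraction and 590.3 FPKM in the WD heavy fraction, whereas Dio1 is between 106 and 146 FPKM in all 6.

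Sepp1 encodes the secreted selenium carrier and lies at chr2:53109684-53115877 in Rnor_6.0, the assembly of the deposited loci. It was measured at 3674 FPKM in CD and 4066 FPKM in WD total RNA, at 8116 and 4826 FPKM in the light fractions and at 886 and 590.3 FPKM in the heavy fractions. Among the loci compared it ranked 27 and 22 in total RNA, 10 and 18 in the light fractions and 94 and 140 in the heavy fractions of the CD and the WD. Both light libraries were therefore above both total libraries, and both heavy libraries were below them. The deposited lower bound was 0 FPKM in all 6 libraries.

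For 5 of the 7 mRNAs, FPKM values could be turned back into whole numbers of sequenced fragments, and each 95% interval below is an exact interval on those fragments. It covers counting error only, neither differences among rats nor copies made by PCR. For Sepp1 these numbers were 5995 and 6346 in total RNA, 9054 and 11706 in the light fractions and 920 and 628 in the heavy fractions, which makes it the most precisely counted of the 5. Its heavy to light ratio was 0.109 (0.102 to 0.117) in the CD, so that light FPKM was 9.16 times heavy FPKM. In the WD the ratio was 0.122 (0.113 to 0.133), with light FPKM 8.18 times heavy FPKM. FPKM is relative to its own library, so such ratios do not give how much of an mRNA each fraction held.

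Gpx1, the abundant cytosolic peroxidase that reduces hydrogen peroxide with glutathione, lies at chr8:117117430-117118522. It was measured at 1093 and 1224 FPKM in total RNA of the CD and the WD, at 2139 and 2236 FPKM in the light fractions and at 755 and 747 FPKM in the heavy fractions. As for Sepp1, both light values were above and both heavy values below the total values. Its heavy to light ratio was 0.353 (0.313 to 0.398) in the CD and 0.334 (0.299 to 0.373) in the WD. Light FPKM was thus 2.83 and 2.99 times heavy FPKM. The interval of each diet held the other diet's ratio.

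Gpx4 encodes the peroxidase that reduces lipid hydroperoxides within membranes. It was measured at 488 and 407 FPKM in total RNA, 851 and 663 FPKM in the light fractions and 347 and 436 FPKM in the heavy fractions. Its heavy to light ratio was 0.408 in the CD and 0.657 in the WD, below 1 in both. The deposited locus, chr7:12471824-12519154, is shared with Sbno2, no fragment numbers could be inferred, and RefSeq names 4 Gpx4 pseudogenes in GRCr8, so its value carries no interval and the division of reads among copies is uncertain.

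Txnrd2 reduces mitochondrial thioredoxin, and its mRNA was the least abundant of the 7, at a mean of 3.60 FPKM. It was measured at 6.46 FPKM in CD and 1.56 FPKM in WD total RNA, at 1.45 and 3.68 FPKM in the light fractions and at 3.12 and 5.33 FPKM in the heavy fractions. The deposited lower bound was 0 FPKM in all 6 libraries. In WD total RNA its upper bound lay 3.22 times its value above the value, the distance commonest for loci resting on 1 fragment in that library. The match was not seen elsewhere. In CD total RNA the distance was narrower than that for 1 fragment (1.82 against 3.365 times). In the light and heavy fractions it was wider, such as 3.25 against 2.3 times in the CD light fraction. This distance therefore gives no fragment number for Txnrd2. No fragment numbers could be inferred for Txnrd2, so its values carry no interval, and few reads stand behind them.

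Msrb1, which reduces oxidized methionine in proteins, lies at chr10:14105750-14111463. Its values were 190.3 and 200.4 FPKM in total RNA, 212 and 116 FPKM in the light fractions and 94.2 and 136 FPKM in the heavy fractions. Its heavy to light ratio was 0.445 (0.309 to 0.633) in the CD and 1.17 (0.863 to 1.59) in the WD, and these intervals did not overlap. The ratios rested on 111 and 46 fragments in the CD light and heavy fractions and on 132 and 68 in the WD.

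Dio1, the liver deiodinase that converts thyroxine to the active hormone triiodothyronine, lies at chr5:126895286-126911520 and had the flattest profile. Its levels were 106 and 108 FPKM in total RNA, 146 and 113 FPKM in the light fractions and 111 and 120 FPKM in the heavy fractions. The highest of the 6 was 1.38 times the lowest, against 13.7 times for Sepp1. The heavy to light ratio of Dio1 was 0.760 (0.594 to 0.970) in the CD and 1.06 (0.854 to 1.31) in the WD.

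Sephs2 makes the selenophosphate from which selenocysteine is built and is a selenoprotein itself. It lies at chr1:198719162-198721476 and was measured at 21.5 and 19.5 FPKM in total RNA, 10.3 and 17.8 FPKM in the light fractions and 50.04 and 50.1 FPKM in the heavy fractions. It differed from the other 4 mRNAs with fragment numbers in that both heavy values were above all its other values. Its heavy to light ratio was 4.86 (2.85 to 8.78) in the CD and 2.81 (2.00 to 3.98) in the WD, on 17 and 77 fragments in the CD and 64 and 79 in the WD.

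The heavy to light ratio thus separated these mRNAs by more than an order of magnitude within 1 liver pool. In the CD, 2 of the 7 were at least 1.5 and 4 were at most 0.75, and over all loci compared these shares were 32.9% and 36.6%. In the WD, 1 was at least 1.5 and 3 were at most 0.75, against 31.4% and 38.5% of all loci. The median ratio of the 7 was 0.445 in the CD and 1.06 in the WD, against 1.01 and 1.00 over all loci. These medians fall on different mRNAs, Msrb1 in the CD and Dio1 in the WD. Taken mRNA by mRNA, the median log2 change of the ratio from CD to WD was 0.16, with 4 higher and 3 lower. Of the 5 mRNAs with intervals, 1 lay above a ratio of 1 in both diets (Sephs2), whereas 4 lay below it in the CD and 2 in the WD (Sepp1 and Gpx1). For all 7, however, the deposited bounds of the light and heavy values overlapped in each diet. The shares of all loci with such intervals or overlaps are not given, here or below, so these counts have no background beside them.

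**Figure D2:**
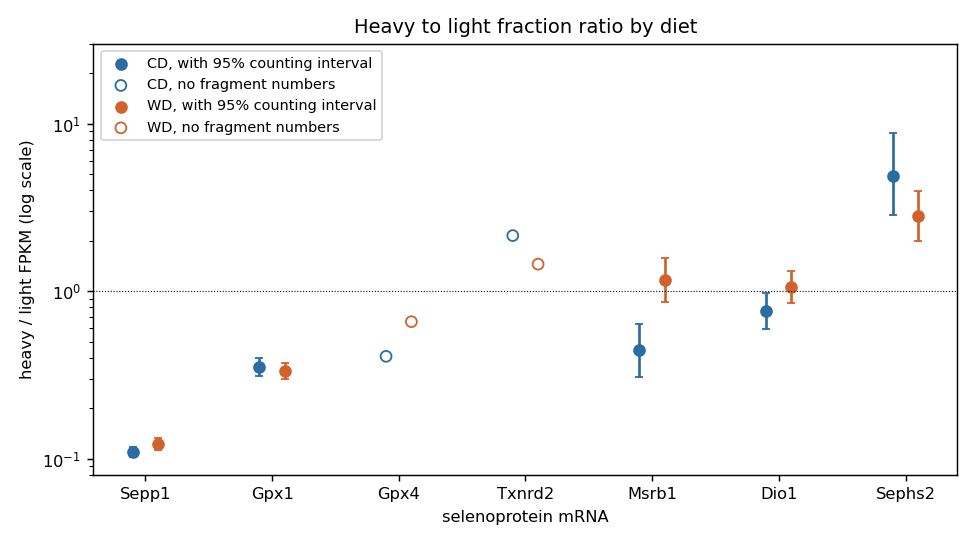
Heavy to light FPKM ratio (log scale) of each selenoprotein mRNA in the CD and the WD. Filled points carry a 95% interval on inferred fragments, open points (Gpx4 and Txnrd2) have none, and the dotted line is a ratio of 1. Sepp1 is lowest at 0.109 and 0.122, and Sephs2 is highest at 4.86 and 2.81.

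Sepp1 and Sephs2 stood near opposite ends of the range of loci. In the CD, 6.33% of the loci compared had a lower heavy to light ratio than Sepp1, and in the WD 8.25% did. For Sephs2 the share of loci below it was 94.2% in the CD and 88.5% in the WD. Short coding regions hold fewer ribosomes, but coding length was not used here. Loci averaging 10 or more FPKM with fragment numbers were divided into 4 groups of 697 by the FPKM that 1 fragment is worth. That value is larger for shorter transcripts and does not measure coding length, so loci within a group can differ in coding region. Among loci in the group of Sepp1, 1.72% had a lower ratio in each diet, and in the group of Sephs2 96.8% had a lower ratio in the CD and 84.9% in the WD. In the group of the shortest transcripts, where the median ratio was 0.836 in the CD and 0.912 in the WD, 24.7% and 25.3% of loci had a lower ratio than Gpx1.

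Of the 76 loci that averaged 1000 or more FPKM, 29 had a heavy to light ratio under 1 in the CD and 23 in the WD, and the median ratio was 1.36 and 1.91. Sepp1 had the 7th lowest ratio among them in both diets, and in the CD the 6 below it were 2 loci of 7SK, a nuclear RNA, loci of Metazoa_SRP and RNaseP_nuc, and 2 mitochondrial loci. In the WD 1 of these mitochondrial loci was not among the 6, and a locus that includes the protein-coding gene Stub1 was. Gpx1 was 17th in the CD and 15th in the WD. These places describe single libraries and carry no test.

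In total RNA the WD to CD ratio was near 1 for 6 of the 7 mRNAs. Sepp1 was 1.11 times as high in the WD (1.07 to 1.15) and Gpx1 1.12 times (1.02 to 1.23), the 2 whose intervals lay above 1. The ratio was 1.05 (0.831 to 1.33) for Msrb1, 1.02 (0.822 to 1.27) for Dio1 and 0.905 (0.593 to 1.38) for Sephs2, whose intervals all held 1. Gpx4 was 0.833 times as high in the WD, without an interval. Txnrd2 was 0.241 times as high, with a log2 change of −1.98 after 0.1 FPKM was added to each value. Its WD value was 1.56 FPKM with a deposited lower bound of 0 FPKM, few reads stand behind it, and it carries no interval.

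Of the 7, 0 were at least 1.5 and 1 was at most 0.75 in the WD to CD ratio of total RNA, where 17.7% and 22.7% of all loci compared were. The median log2 change was 0.03 for the 7 and 0.02 for all loci. With 4 mRNAs higher and 3 lower in the WD, the group had no common direction. The deposited bounds of the CD and WD values overlapped for all 7.

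In the light fraction the diets differed more. Sepp1 was 0.595 times as high in the WD (0.578 to 0.611), Msrb1 0.547 times (0.422 to 0.710) and Dio1 0.771 times (0.633 to 0.942), each with an interval below 1. Gpx1 was 1.05 times as high (0.974 to 1.12) and Gpx4 0.780 times. Sephs2 was 1.73 times as high in the WD, with a lower bound of 1.002 and an upper bound of 3.15, and Txnrd2 2.53 times. Thus 2 of the 7 were at least 1.5 and 2 at most 0.75, against 25.9% and 26.8% of all loci compared. These ratios depend on scaling, since loci with a symbol summed to 678273 FPKM in the CD and 866676 FPKM in the WD light library. With all libraries scaled to the same sum, the shares of all loci became 17.4% and 44.1%. The median log2 change of all loci went from 0.02 to −0.29. The intervals above hold for FPKM as deposited and do not cover this. In the WD light library, summed red blood cell markers were 414 FPKM, mostly Hbb and Hba1, against 52.6 FPKM in the CD light library, while Alas2 was lower. That WD library was also the deepest, and the part of either in these ratios was not tested.

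In the heavy fraction, Sepp1 was the 1 mRNA of the 5 with fragment numbers whose interval left out 1, at 0.666 times the CD value (0.601 to 0.738). Gpx1 was 0.989 times as high in the WD (0.855 to 1.15), Dio1 1.08 times (0.831 to 1.40), Sephs2 1.00 times (0.722 to 1.39) and Msrb1 1.44 times (0.978 to 2.15). The ratio was 1.26 for Gpx4 and 1.71 for Txnrd2. At least 1.5 was reached by 1 of the 7 and at most 0.75 by 1, against 21.7% and 25.8% of all loci. Sepp1 was thus lower in both fractions of the WD while it was higher in total RNA.

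Ribosome density was compared between diets as the heavy to light ratio of the WD over that of the CD, and Msrb1 was highest of the 7. Its ratio was 2.64 (1.64 to 4.26), a log2 change of 1.40, and its light value was lower and its heavy value higher in the WD. Gpx4 was at 1.61 and Dio1 at 1.40, with a lower bound of 1.005 and an upper bound of 1.94. Sepp1 was at 1.12 (1.01 to 1.25) and Gpx1 at 0.946 (0.804 to 1.11), both close to 1. Sephs2 was at 0.578 with an interval that held 1 (0.292 to 1.11), and Txnrd2 was at 0.675.

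At least 1.5 was therefore reached by 2 of the 7 (Msrb1 and Gpx4) and at most 0.75 by 2 (Sephs2 and Txnrd2), where 27.7% and 36.1% of all loci compared passed these limits. When the libraries were scaled to 1 common sum over loci with a symbol, the shares of all loci became 38.0% and 27.2%, and the median log2 change of all loci went from −0.02 to 0.28. The median of the 7 was 0.16 as deposited and 0.49 after that scaling. Measured with heavy over total RNA instead, Msrb1 had a log2 change of 0.45, Sepp1 one of −0.73, Txnrd2 one of 2.74 and Sephs2 one of 0.15, so the direction turned for the last 3.

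**Figure D3:**
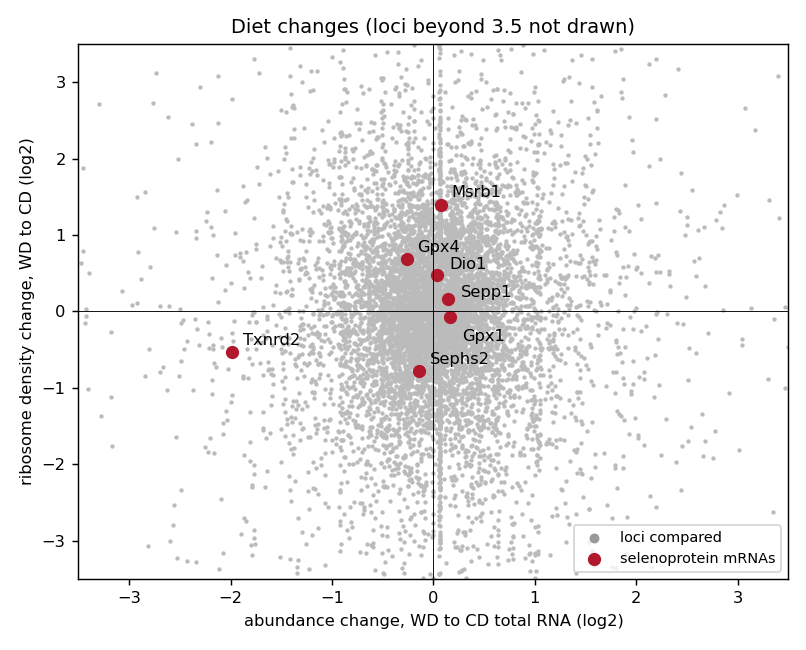
Log2 WD to CD change in total RNA (horizontal) against the log2 change in ribosome density (vertical) for 8862 of the loci compared in grey and the 7 selenoprotein mRNAs in red. Another 1339 loci lie beyond 3.5 and are not drawn. Of the 7, 6 lie within 0.3 of 0 in total RNA, Txnrd2 lies at −1.98, and Msrb1 is highest in ribosome density at 1.40.

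The Sepp1 values need the neighboring gene beside them. Ccdc152 lies at chr2:53116101-53140637, 223 bases beyond the deposited Sepp1 locus, and in RefSeq the genes overlap by 10 bases on opposite strands. Ccdc152 was measured at 40.8 FPKM in CD and 32.8 FPKM in WD total RNA, at 157 and 2674 FPKM in the light fractions and at 37.8 and 30.5 FPKM in the heavy fractions. In the light fraction of the WD it was 55.4% of the Sepp1 FPKM, and elsewhere it was 0.806% to 5.16%. Whether strand was used in counting is not given in the sources used here, so reads of these genes cannot be told apart near their shared end.

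With the fragments of Ccdc152 added to those of Sepp1, an alternative chosen after the data were seen, the WD to CD ratio of the light fraction was 0.779 (0.759 to 0.799) in place of 0.595. The heavy to light ratio became 0.111 in the CD and 0.0951 in the WD, so it was low in both diets either way. The diet change in ribosome density became 0.860 (0.774 to 0.955) in place of 1.12, on the other side of 1. The direction of that change for Sepp1 therefore rests on how 3803 Ccdc152 fragments of the WD light library are assigned.

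**Figure D4:**
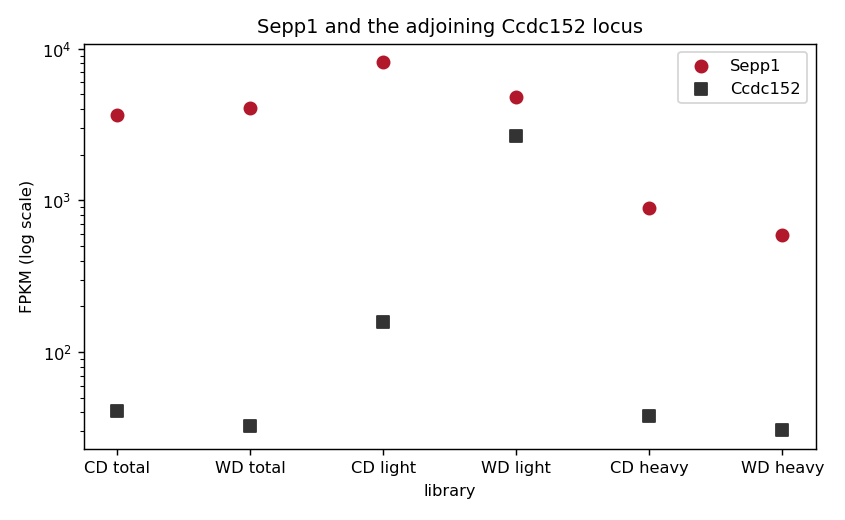
FPKM (log scale) of Sepp1 and of its neighbor Ccdc152 in each library, with 1 point for each gene and library. Ccdc152 is 2674 FPKM in the light fraction of the WD and 30.5 to 157 FPKM elsewhere, whereas Sepp1 is above it in all 6 libraries.

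The loci whose 6 values were most like those of Sepp1 were Cmpk1 (Pearson r = 0.999), Arhgap5 (0.998), Slc35a3 (0.998), Npm1 (0.996) and Ppp4r2 (0.995), out of 4068 loci that averaged 10 or more FPKM. The correlation is over 6 libraries that share sources and is given as a description. Their heavy to light ratios in the CD were between 0.150 and 0.272, against 0.109 for Sepp1. The light and heavy libraries were part of the correlation, so low ratios follow from how these loci were chosen.

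Other selenoproteins were read from a list of 17, of which 3 were not found by symbol, 3 fell below the filter and were listed at 0 FPKM (Gpx2, Selv and Sepw1), and 11 were compared. In total RNA 7 of the 11 were higher and 4 lower in the WD, with 3 at least 1.5 and 3 at most 0.75 (17.7% and 22.7% of all loci) and a median log2 change of 0.33, against 0.02 over all loci. In ribosome density 5 were higher and 6 lower, with 2 at least 1.5 and 6 at most 0.75 (27.7% and 36.1% of all loci) and a median of −0.43. The highest WD to CD ratio in total RNA was that of Gpx3, the plasma peroxidase, at 1.95, but it rested on 1 and 2 fragments (0.109 to 123). The lowest was that of Sepn1, a protein of the endoplasmic reticulum, at 0.605 (0.128 to 2.35) on 7 and 4 fragments.

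Several of the 11 were better counted. Sep15, which acts in folding of proteins in the endoplasmic reticulum, was at 36.6 FPKM in CD and 52.9 FPKM in WD total RNA, a ratio of 1.44 (1.01 to 2.08). Selo was highest in ribosome density, with a WD to CD ratio of 2.32 on 19 to 37 fragments per light or heavy library. Its heavy to light ratio was 1.24 in the CD and 2.88 in the WD. Gpx3 was lowest in that measure, since it was listed at 0 FPKM in the CD light fraction. Selk, another protein of the endoplasmic reticulum, had heavy to light ratios of 2.05 (1.20 to 3.61) and 2.40 (1.48 to 3.91). Txnrd1, the cytosolic counterpart of Txnrd2, was more abundant than Txnrd2 in every library, at 22.4 and 28.1 FPKM in total RNA, 20.4 and 28.0 FPKM in the light fractions and 14.1 and 13.3 FPKM in the heavy fractions. No fragment numbers could be inferred for Txnrd1.

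Genes that make and decode selenocysteine were listed together with the receptors Lrp2 and Lrp8 and with Scly, which do neither. All were found (15 of 15), and 13 were compared. In total RNA 8 were higher and 4 lower in the WD, with 1 at least 1.5 and 2 at most 0.75 against 17.7% and 22.7% of all loci, and a median log2 change of 0.17. The highest was Eefsec, the elongation factor that brings the selenocysteine tRNA to the ribosome, at 4.57 FPKM in the CD and 9.14 FPKM in the WD. No fragment numbers could be inferred for Eefsec, so its ratios carry no interval. The lowest was Lrp2, a receptor that takes up selenoprotein P in kidney, at 2.40 and 1.19 FPKM, a ratio of 0.518 (0.277 to 0.867). Sepsecs, which makes selenocysteine on its tRNA, and Secisbp2, the SECIS binding protein, had ratios of 1.12 (0.765 to 1.64) and 1.38 (0.539 to 3.75), so a difference was not detectable at this depth.

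In ribosome density 6 of these 13 were higher and 7 lower, with 3 at least 1.5 and 4 at most 0.75 against 27.7% and 36.1% of all loci, and a median log2 change of −0.04. Eefsec was highest, at a WD to CD ratio of 2.03, without an interval. Rpl30, a ribosomal protein that also binds the SECIS element, was lowest because its 1 value above 0 was 23.9 FPKM, in the light fraction of the WD. The light fraction value of Ncl, nucleolin, was 35.1 FPKM in the WD (142 fragments) and 3.76 FPKM in the CD (7 fragments). Scly, which frees selenium from selenocysteine, had heavy to light ratios of 4.05 (2.75 to 6.17) in the CD and 1.99 (1.55 to 2.57) in the WD, in the same order as those of Sephs2.

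Relatives that hold cysteine or no selenocysteine numbered 8, of which 6 were compared. Sephs1 was also in the list above, and Gsr was also among the partners below. In total RNA 4 were higher and 2 lower in the WD. Msrb2, the mitochondrial counterpart of Msrb1, was highest at 12.0 and 26.1 FPKM, a ratio of 2.16 (1.08 to 4.58), and Gpx8 was lowest at 0.359 (0.0344 to 1.95) on 6 and 2 fragments. In ribosome density 4 were higher and 2 lower, with Msrb3 highest at 2.86 on 3 to 15 fragments per library and Gpx8 lowest at 0.430. Msra, which reduces the other form of methionine sulfoxide, had heavy to light ratios of 2.04 and 1.87, against 0.445 and 1.17 for Msrb1.

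Thioredoxin and glutathione partners, which share substrates or reducing power with these enzymes, were all 19 compared. In total RNA 13 were higher and 6 lower in the WD, with a median log2 change of 0.20. At least 1.5 was reached by 1 (Glrx2, on 0 and 1 fragment) and at most 0.75 by 1 (Prdx2, at 0.646, with an interval of 0.231 to 1.68), where 17.7% and 22.7% of all loci passed these limits. In the CD 10 had a heavy to light ratio of at least 1.5 and 4 of at most 0.75, against 32.9% and 36.6% of all loci. In the WD 11 and 3 did, against 31.4% and 38.5%, and the median ratio was 1.58 in the CD and 1.70 in the WD. Cat, catalase, which like Gpx1 removes hydrogen peroxide, was at 1647 and 1499 FPKM in total RNA, near Gpx1, but had ratios of 3.12 and 4.10. Prdx1, a peroxidase that uses thioredoxin, had ratios of 7.76 and 8.85.

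**Figure D5:**
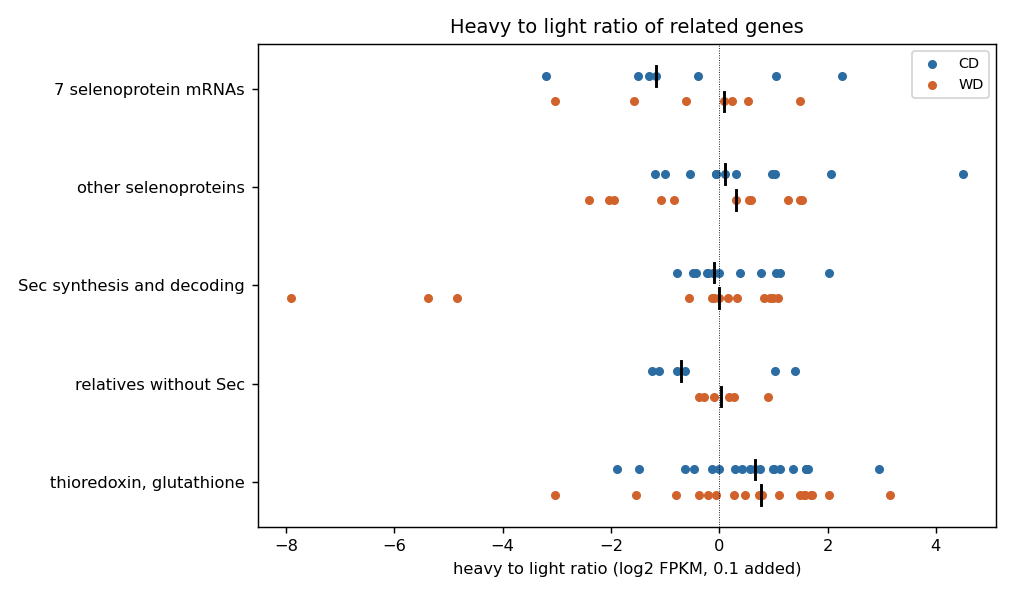
Log2 heavy to light ratio in the CD (blue) and the WD (orange) for the genes compared in 5 lists, with 1 point for each gene, a black bar at the list's median and a dotted line at a ratio of 1 (Sec, selenocysteine). The medians of the 7 selenoprotein mRNAs are −1.17 in the CD (Msrb1) and 0.09 in the WD (Dio1), so they fall on different mRNAs. Those of the 11 other selenoproteins are 0.10 and 0.32, and those of the 19 thioredoxin and glutathione partners are 0.66 and 0.76.

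Sod1, which makes hydrogen peroxide from superoxide, had the lowest WD to CD change in ribosome density of these partners, at 0.454, with heavy to light ratios of 0.269 and 0.122. Its WD light value was 362 FPKM, against 90.03 FPKM in the CD light fraction and 24.2 to 123 FPKM elsewhere. The highest change was that of Srxn1, sulfiredoxin, at 3.90, on 2 to 5 fragments per library.

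Of 13 genes of the thyroid hormone pathway around Dio1, 11 were compared. In total RNA 4 were higher and 7 lower in the WD, with 0 at least 1.5 and 3 at most 0.75 (17.7% and 22.7% of all loci) and a median log2 change of −0.20. The highest was Crym, which binds thyroid hormone in the cytosol, at a ratio of 1.16 (0.727 to 1.84), and the lowest was Slc16a10, a transporter of the hormone, at 7.15 and 2.41 FPKM, a ratio of 0.345. In ribosome density 7 were higher and 4 lower, with 5 at least 1.5 and 2 at most 0.75 (27.7% and 36.1% of all loci) and a median of 0.49. Slc16a10 was highest there at 3.58, on light values of 0.952 FPKM in the CD and 0.516 FPKM in the WD. Me1, malic enzyme, a hormone-responsive gene, was lowest at 0.604. No fragment numbers could be inferred for Slc16a10 or Me1, so their ratios carry no interval. The hormone receptor Thrb had ratios of 0.848 in total RNA and 0.946 in ribosome density.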

How the data were processed

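Polysome and total RNA libraries were compared from livers of CD and WD rats, 1 library of 3 pooled rats for each of 6 groups, grouped by sample title. Per the labels and the study's methods, ribosomal RNA was removed, and the authors processed reads with bcl2fastq, TopHat (Rnor_6.0), Cufflinks and Cuffnorm. The deposited values are FPKM per locus, normalized across libraries, with a lower and an upper bound. The annotation is not given in the sources used here, and whether fraction reads were aligned like total RNA is not certain. Loci without a symbol were left out, the start of each locus was raised by 1 (deposited starts count from 0), and all deposited columns of FPKM were used.

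Log2 changes were computed from the deposited FPKM after adding 0.1 FPKM. Ratios of the 7 mRNAs are of FPKM as deposited. Ratios of other genes, medians and counts past a limit include the 0.1 FPKM, which understates changes of low genes. Limits of 1.5 and 0.75 are those of the study for ribosome density, which it applied to CD over WD and which were applied here to WD over CD and to the other ratios. The sum over loci with a symbol was 616030 FPKM in the lowest and 866676 FPKM in the highest library. Fragment numbers were inferred as whole multiples of 1 step per locus and 1 factor per library for 8982 of 12459 loci (72.1%), and for 0.0241% after values were jittered by 1%; inference was tested on simulated data. These loci hold 281153 to 642333 fragments per library. Multiples of the numbers would give the same FPKM. Ratio intervals are exact (Clopper-Pearson, 95%), those of ribosome density exact for an odds ratio.

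The mRNAs, lists and tests were chosen with earlier results of these data known. Named genes were the 7, the highest and lowest of each other list in total RNA and ribosome density, genes whose role is described, and the 5 loci most like Sepp1. Alternatives were filters at 10 FPKM and none, pseudocounts of 1 and 0.01 FPKM, libraries rescaled to the same sum, changes centred on their median, loci of a symbol summed and heavy over total RNA. A neighbor of 1 mRNA is not reported here. Start sequences are from RefSeq (GRCr8). Software was scipy 1.17.1, numpy 2.4.6 and pandas 2.3.3 under Python 3.11.15, with figures drawn in matplotlib 3.10.9.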

Additional observations from a re-analysis of the deposited data

Results flagged for a closer look

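For 4 of the 7 selenoprotein mRNAs, the WD to CD ratios of the light and the heavy fraction lay on opposite sides of 1. Each ratio rests on 1 library per diet, and the difference was not tested. The share of all loci that split in this way is not given, so the count is not a result about these mRNAs. Of these 4, Msrb1 had the largest log2 change in ribosome density, at 1.40, with a ratio of 0.547 (0.422 to 0.710) in the light and 1.44 (0.978 to 2.15) in the heavy fraction, where the interval held 1. Gpx4, the lipid hydroperoxide peroxidase, was at 0.69, with ratios of 0.780 and 1.26 and no interval. Dio1, the deiodinase, was at 0.48, with 0.771 (0.633 to 0.942) in the light and 1.08 (0.831 to 1.40) in the heavy fraction. Gpx1 was at −0.079, with 1.05 (0.974 to 1.12) and 0.989 (0.855 to 1.15), so that both intervals held 1.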

How the results depend on the processing

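No paired analysis was possible because each group holds 1 library, and for the same reason no library could be left out. Filters and the summing of loci, 3 settings in all, cannot change the values of the 7 and are not counted here. Under the other settings, 27 of 28 medians and counts of the 7 mRNAs stayed within the median half-width of the counting intervals (0.48 for log2 changes in ribosome density, 0.31 in total RNA) or, for counts, within 1.5 times. That tolerance is wide: rescaling moved the median ribosome density change from 0.16 to 0.49 and the median log2 heavy to light ratio in the WD from 0.09 to 0.39, and the mRNAs past a limit in ribosome density went from 4 to 3 with a pseudocount of 1 FPKM and with heavy over total RNA. The exception was the median log2 heavy to light ratio in the CD, −1.17, which was −0.53 with heavy over total RNA. Of 64 values of single mRNAs, 5 changed sign, all in ribosome density. With heavy over total RNA these were Txnrd2 (−0.53 to 2.74), Sephs2 (−0.78 to 0.15) and Sepp1 (0.16 to −0.73), with libraries rescaled Gpx1 (−0.079 to 0.25), and with Ccdc152 added Sepp1 (0.16 to −0.22). With a mean of at least 10 FPKM, 8.77% of 4069 loci were at least 1.5 and 16.2% at most 0.75 in total RNA. Differences among rats were not measured.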
